A study of Mus musculus with 20 samples.

Results

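The 9 cartilage matrix genes described here are Col2a1, Col9a1, Col9a2, Col9a3, Col11a1, Matn4, Cnmd, Chad and Hapln1. Every probe set annotated to one of these symbols alone was taken, which gave 15 probe sets for 9 genes, of 12393 genes measured in that way on the array. The genes were selected on results of these arrays that included the E18.5 mutant and control values, so their E18.5 differences are a description. RNA was from left lung lobes of embryos on the C57Bl6 background, with 20 arrays in 4 groups of 5. The E18.5 mutants and E16.5 mutants carry the genotype GRCol1-Cre, in which Cre is expressed from a bacterial artificial chromosome with the locus of the type I collagen alpha-2 gene and removes the glucocorticoid receptor (GR, gene Nr3c1) in mesenchymal cells. The E18.5 controls and E16.5 controls carry the GR flox allele and keep the receptor. Epithelial, endothelial and blood cells of the mutant lobe are not the stated target of this Cre. In whole lobes, a lower level can mean fewer cells of a type or less RNA per cell, and these cannot be told apart.

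Cartilage matrix is a network of thin type II collagen fibrils that hold a gel of aggrecan bound to hyaluronan. Type XI collagen sits in the fibril core, type IX collagen coats the fibril surface, and adaptor proteins such as matrilins, chondroadherin and link protein join the parts. SOX9, with SOX5 and SOX6, drives many of these genes in chondrocytes. In mice, airway cartilage lies in the trachea and the main bronchi outside the lobes, while SOX9 in the fetal lung also marks the epithelium of the growing distal tips.

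Of the products that define cartilage, some were dim in every lobe and others were not. On the log2 scale of the arrays, where a value below 4 is called dim, the aggrecan gene Acan reached at most 1.99 in any of the 20 arrays. Comp, a cartilage adaptor protein, reached at most 2.33 and the matrilin Matn1 at most 2.45. They are among 14 of 20 cartilage matrix genes outside the 9 that stayed at or below 4 in all arrays. Acan, Comp and Matn1 each rest on a single probe set that was flat in all arrays. Absent RNA and a probe set that does not respond cannot be told apart for them. Col2a1 was above 4 in 7 arrays and Cnmd in 8, all of them at E16.5. The 9 genes are called here by their role in matrix, and whether the lobes held cartilage cells was not tested.

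Promoters are shown for 3 of the 4 members whose E18.5 genotypes differed past the threshold, Col9a1, Chad and Hapln1, to give the sequence upstream of genes that moved in opposite directions. RefSeq (GRCm38.p6) gave 9 promoters for 7 of the 9 members. The stretches are the 250 bases before the start, 5′ to 3′ on the plus strand, for Col9a1 start 1 (chr1:24177360-24177609), Col9a1 start 2 (chr1:24194953-24195202), Chad (chr11:94564797-94565046) and Hapln1 (chr13:89540386-89540635). Capitals mark matches to 3 motifs searched on both strands, with matches allowed to overlap. These were ACAAAG or else ACAATG for the SOX core, AGAACA for a half-site of the glucocorticoid response element, and TATAAA for the TATA box.
Col9a1 start 1: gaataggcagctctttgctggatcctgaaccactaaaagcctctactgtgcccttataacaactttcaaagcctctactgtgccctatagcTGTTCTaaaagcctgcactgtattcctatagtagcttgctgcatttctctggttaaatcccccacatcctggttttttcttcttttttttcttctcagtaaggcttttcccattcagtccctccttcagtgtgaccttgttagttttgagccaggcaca
Col9a1 start 2: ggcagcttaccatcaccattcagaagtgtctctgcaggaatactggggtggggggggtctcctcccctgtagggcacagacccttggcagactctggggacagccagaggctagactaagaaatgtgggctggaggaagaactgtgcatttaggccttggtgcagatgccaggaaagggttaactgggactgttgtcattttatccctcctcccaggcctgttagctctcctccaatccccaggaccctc
Chad: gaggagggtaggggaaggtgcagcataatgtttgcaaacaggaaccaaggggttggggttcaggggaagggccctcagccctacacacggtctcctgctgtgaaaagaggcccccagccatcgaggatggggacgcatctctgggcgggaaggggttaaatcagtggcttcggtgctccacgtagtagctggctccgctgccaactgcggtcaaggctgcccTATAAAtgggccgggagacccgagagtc
Hapln1: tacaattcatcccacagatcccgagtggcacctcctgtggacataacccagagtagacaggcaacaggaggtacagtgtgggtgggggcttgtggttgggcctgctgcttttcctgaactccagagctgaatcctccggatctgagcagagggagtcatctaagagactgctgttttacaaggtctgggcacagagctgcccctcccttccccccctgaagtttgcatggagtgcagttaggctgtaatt
In Col9a1 start 1 the capitals are AGAACA read on the minus strand, beginning 159 bases before the start. In Chad they are a TATAAA beginning 28 bases before the start. Other forms of the SOX core were not searched. ACAAAG and ACAATG were in none of the 9 promoters, and either is in 25.2% of all 32851 promoters of this length. The half-site is in 16.1% of them and TATAAA in 12.4%. Cnmd also held AGAACA, beginning 69 bases before its start. These matches are descriptions of letters in a short window.

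Facts of the whole series that bear on these genes are as follows. Array medians lay between 5.70 and 5.87. Nr3c1 averaged 7.80 ± 0.19 in E18.5 mutants and 9.42 ± 0.22 in E18.5 controls, and 7.07 ± 0.45 in E16.5 mutants and 8.78 ± 0.22 in E16.5 controls (SD, n = 5 each). At E16.5, 5 of 5 mutants and 1 of 5 controls were female, so sex and genotype largely coincide there, whereas 2 of 5 mutants and 3 of 5 controls were female at E18.5. Of the E18.5 controls, replicates 3 and 4 stood apart. In replicate 3 the mean level over 10 skeletal muscle markers was 5.68 and in replicate 4 it was 4.05, against 2.67 to 2.85 in the E18.5 mutants and 2.85 to 2.96 in the other 3 E18.5 controls. Over 9 squamous epithelium markers on the array the means were 5.25 in replicate 3 and 5.84 in replicate 4, against 2.83 to 2.95 in the mutants and 2.89 to 2.91 in the other controls. Over 10 smooth muscle markers they were 8.58 and 8.77, against 7.87 to 8.19 in the mutants and 7.65 to 7.81 in the other controls. Acan, Comp and Matn1 were at 1.93, 2.25 and 2.32 in replicate 3. Member results that use the E18.5 controls are given below also without replicate 3 or without both arrays, an alternative chosen after the data were seen.

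Stage position scores how far an array had moved from the E16.5 control mean (0) toward the E18.5 control mean (1) over all 8068 genes tested, with each control scored against means that did not include it. E18.5 mutants 1 to 5 lay at 0.519, 0.525, 0.765, 0.452 and 0.769, and E18.5 controls 1 to 5 at 1.09, 1.04, 0.704, 1.02 and 1.09. The E16.5 mutants lay between -0.127 and 0.0874 and the E16.5 controls between -0.0896 and 0.211. E18.5 mutants 3 and 5 and E18.5 control 3 thus lay close together, between the other E18.5 mutants and the other E18.5 controls. Several members followed this order.

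**Figure D1:**
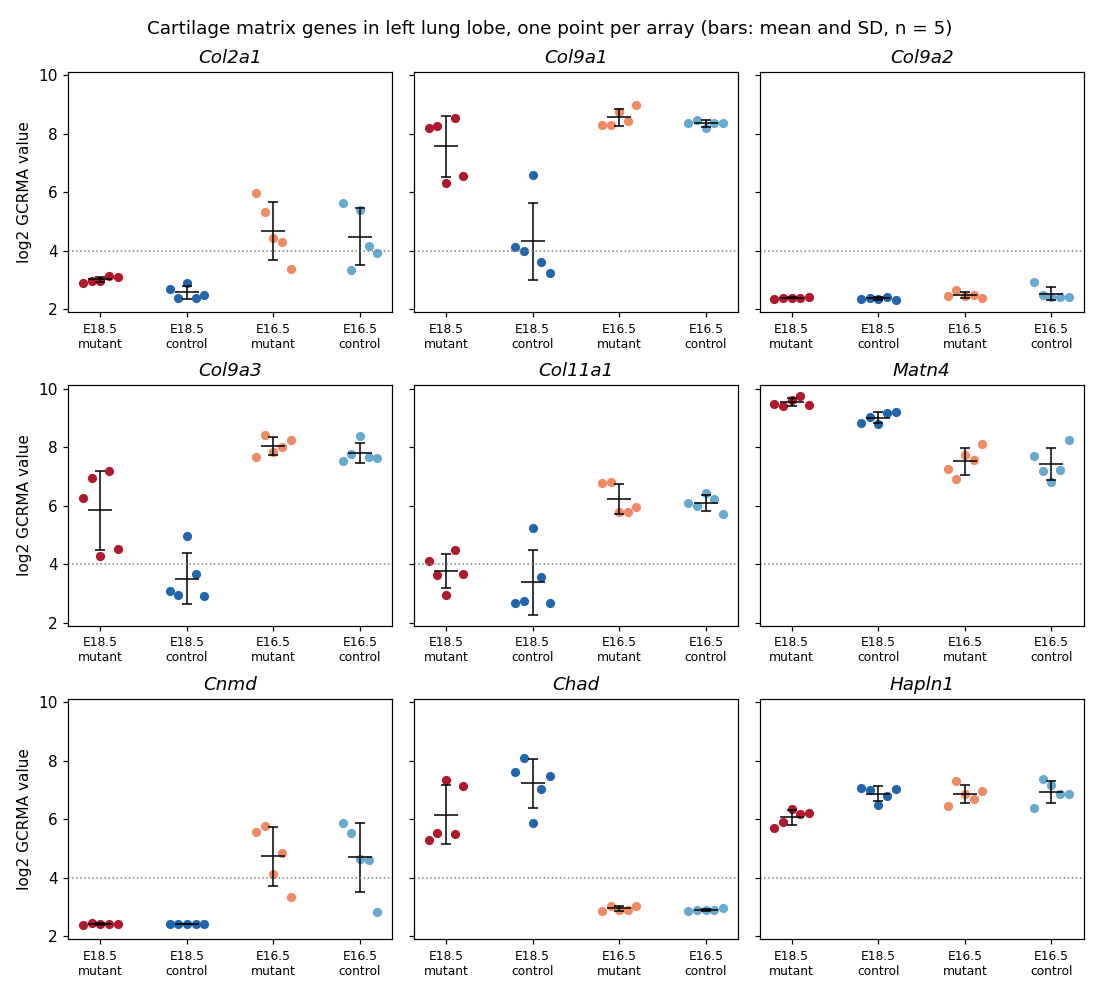
Log2 GCRMA value (vertical axis) of the brightest probe set of each of the 9 genes in E18.5 mutants, E18.5 controls, E16.5 mutants and E16.5 controls, with 1 point per array, bars for the mean and SD (n = 5), and a dotted line at 4, below which a value is dim. Col9a1 and Col9a3 were near 8 in all E16.5 arrays and split the E18.5 mutants into a higher 3 and a lower 2, while Chad was dim in all E16.5 arrays and above 5 in all E18.5 arrays.

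The type IX collagen genes differed most between the E18.5 genotypes. Col9a1 (chromosome 1), which encodes the chain that carries the projecting end domain of the molecule, read 8.19, 8.27, 6.33, 8.54 and 6.54 in E18.5 mutants 1 to 5. It read 4.11, 4.0, 6.60, 3.63 and 3.23 in E18.5 controls 1 to 5. Mutants 1, 2 and 4 lay above all controls, whereas mutants 3 and 5 lay just below control 3 and above the other 4 controls. The group means were 7.57 ± 1.05 in mutants and 4.32 ± 1.32 in controls (SD, n = 5), a log2 difference of 3.26 (SE 0.50), or 9.56-fold. Without control 3 the difference was 3.83, and without controls 3 and 4 it was 3.79. A second Col9a1 probe set was at 3.51, 3.88, 2.97, 4.54 and 2.98 in the mutants and 2.33, 2.99, 3.63, 2.99 and 2.98 in the controls, and its difference was 0.59 (SE 0.26). This difference did not pass the threshold (limma adjusted p = 0.0927), and control 3 lay above mutants 1, 3 and 5 on it. Most of its E18.5 values were below 4. Both the size and the call of the Col9a1 difference thus depend on the probe set.

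Col9a3 (chromosome 2), another type IX chain, had a similar order of arrays. It read 6.28, 6.94, 4.27, 7.20 and 4.53 in the E18.5 mutants and 3.07, 2.93, 4.96, 3.66 and 2.91 in the E18.5 controls. Mutants 1, 2 and 4 were above every control, and mutants 3 and 5 were below control 3 and above the rest. The means were 5.84 ± 1.36 and 3.51 ± 0.87, a difference of 2.34 (SE 0.49), or 5.05-fold. It was 2.70 without control 3 and 2.87 without controls 3 and 4. A second probe set read 4.96, 4.72, 2.40, 5.44 and 2.44 in the mutants, against 2.16 to 2.72 in the controls, so mutants 3 and 5 were dim on it and mutants 1, 2 and 4 were not. The other Col9a3 probe set lay between 2.51 and 2.73 in all 20 arrays and carried no difference. Because 4 of 5 control values of Col9a3 were dim, the fold is limited by the low end of the scale.

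Col9a2 (chromosome 4), the remaining chain of the molecule, was dim throughout. It lay between 2.35 and 2.40 in E18.5 mutants, 2.32 and 2.43 in E18.5 controls, 2.37 and 2.66 in E16.5 mutants, and 2.40 and 2.93 in E16.5 controls. It did not pass the filter on dim genes and was not tested. The other 8 members passed.

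The fibrillar collagens were low at E18.5 in both genotypes. Col2a1 (chromosome 15), the main fibrillar collagen of cartilage, read 2.91, 2.97, 2.97, 3.13 and 3.09 in the E18.5 mutants and 2.69, 2.38, 2.90, 2.38 and 2.47 in the E18.5 controls. The groups did not overlap, but all 10 values were dim, and the difference was 0.45 (SE 0.42). This SE rests on a spread taken over all 4 groups. The Col2a1 SD was 1.01 in mutants and 0.99 in controls at E16.5, but 0.09 and 0.23 at E18.5. With only the E18.5 arrays in the fit, Col2a1 was called higher. Col11a1 (chromosome 3), a chain of type XI collagen, read 4.11, 3.61, 2.96, 4.49 and 3.65 in the mutants and 2.67, 2.75, 5.23, 3.57 and 2.66 in the controls. Control 3 was the highest of these 10 arrays and the groups overlapped, with a difference of 0.39 (SE 0.40). The Col11a1 difference was 0.85 without control 3 and 1.07 without controls 3 and 4, and the gene then passed the threshold. Its second probe set read 4.04, 4.55, 3.51, 3.91 and 3.49 in the mutants and 3.38, 3.40, 4.28, 3.67 and 2.71 in the controls.

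Chad (chromosome 11) encodes chondroadherin, a leucine-rich repeat protein that binds collagen and cell surface integrin. It ran opposite to type IX collagen, with 5.28, 5.51, 7.34, 5.49 and 7.15 in the E18.5 mutants and 7.63, 8.10, 5.88, 7.03 and 7.49 in the E18.5 controls. Mutants 1, 2 and 4 lay below all controls, mutants 3 and 5 lay within the range of the controls, and control 3 was the lowest control. The difference was -1.07 (SE 0.38), a 2.10-fold lower level in the mutants, -1.41 without control 3 and -1.59 without controls 3 and 4. The Chad call was lost when any of 7 single arrays was left out (E18.5 controls 1, 2, 4 or 5, or E18.5 mutants 1, 2 or 4), with differences of -1.12 to -0.85.

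Hapln1 (chromosome 13) encodes link protein, which holds aggrecan and related proteoglycans on hyaluronan. It read 5.71, 5.90, 6.33, 6.17 and 6.22 in the E18.5 mutants and 7.07, 7.0, 6.47, 6.79 and 7.04 in the E18.5 controls. All 5 mutants were below all 5 controls, and control 3 was the lowest control. The difference was -0.81 (SE 0.18), 1.75-fold lower in mutants, -0.91 without control 3 and -0.97 without controls 3 and 4. Its second probe set read 5.50, 5.43, 6.11, 5.90 and 5.92 in the mutants and 6.80, 6.89, 5.86, 6.73 and 6.80 in the controls, a difference of -0.85 (SE 0.20). On this probe set control 3 lay below mutants 3, 4 and 5, so the groups overlapped. Its remaining probe set was dim in all 10 E18.5 arrays.

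Matn4 (chromosome 2), a matrilin that links matrix filaments and is also made outside cartilage, was bright in all arrays. It read 9.48, 9.43, 9.63, 9.75 and 9.45 in the E18.5 mutants and 8.84, 9.04, 8.79, 9.19 and 9.22 in the E18.5 controls. All mutants were above all controls, by 0.53 on average (SE 0.22), which did not pass the threshold over all genes, and by 0.51 without controls 3 and 4. Cnmd (chromosome 14) encodes chondromodulin, a cartilage protein that inhibits vessel growth. It was dim in all 10 E18.5 arrays, at 2.38 to 2.44 in mutants and 2.40 to 2.42 in controls.

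In the fit over all genes (limma, Benjamini-Hochberg adjusted p under 0.05), 18.6% of the 8068 genes were called higher and 15.9% lower in E18.5 mutants, 34.5% in all. Of the 8 members that passed the filter, 2 were called higher (Col9a1 and Col9a3), 2 lower (Chad and Hapln1) and 4 were not called. Without control 3, and without controls 3 and 4, there were 3 higher and 2 lower. On the brightest probe sets, the groups did not overlap for Col2a1 and Matn4 (higher) and Hapln1 (lower), against 8.27% and 9.13% of all genes tested. The median difference of the 8 members was 0.42, beside 0.03 over all genes. Since the members were chosen with this contrast in view, nothing is read from these counts.

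The same genes were compared between genotypes at the earlier stage, E16.5. The members were chosen with E16.5 results known too, so these values are also a description. None of the 8 members was called (limma, and 0 with an unadjusted p under 0.05). Over all genes, 0.0496% were called higher and 0.198% lower, 0.248% in all, and 356 genes had an unadjusted p under 0.05. The groups overlapped for every member, and were apart in 0.347% of all genes (higher) and 0.657% (lower). Col9a1 read 8.31, 8.31, 8.73, 8.43 and 9.0 in the E16.5 mutants and 8.37, 8.48, 8.19, 8.37 and 8.37 in the E16.5 controls, a difference of 0.20 (SE 0.50). Col9a3 read 7.66, 8.42, 7.83, 8.02 and 8.25 in the mutants and 7.53, 7.76, 8.39, 7.67 and 7.62 in the controls, a difference of 0.24 (SE 0.49). Both were bright in all 10 animals. The standard errors of the 8 members were 0.18 to 0.50, so differences of that order, and some beyond it, could not be called. Each rests on a spread taken over all 4 groups, E18.5 arrays included. For Col9a1 the SD was 0.30 in mutants and 0.11 in controls at E16.5, and 1.05 and 1.32 at E18.5. With only the E16.5 arrays in the fit, 0 members were called.

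The other members lay as follows at E16.5. Col11a1 read 5.80 to 6.80 in mutants and 5.71 to 6.43 in controls, a difference of 0.14 (SE 0.40). Hapln1 read 6.45 to 7.30 in mutants and 6.37 to 7.38 in controls, and Matn4 6.92 to 8.11 in mutants and 6.80 to 8.24 in controls. Chad was dim in all 10 arrays, at 2.87 to 3.04 in mutants and 2.87 to 2.95 in controls. Col2a1 and Cnmd varied far more between animals of 1 group than between genotypes. Col2a1 read 5.97, 5.31, 4.43, 4.28 and 3.35 in the E16.5 mutants and 5.64, 3.33, 5.38, 4.17 and 3.90 in the E16.5 controls. Cnmd read 5.57, 5.76, 4.13, 4.84 and 3.33 in the mutants and 5.88, 5.51, 4.64, 4.62 and 2.83 in the controls. The lowest Cnmd value of each genotype was that of replicate 5, which also had the highest stage position of its group, 0.0874 in the mutants and 0.211 in the controls. The part of stage position in this spread was not tested.

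**Figure D2:**
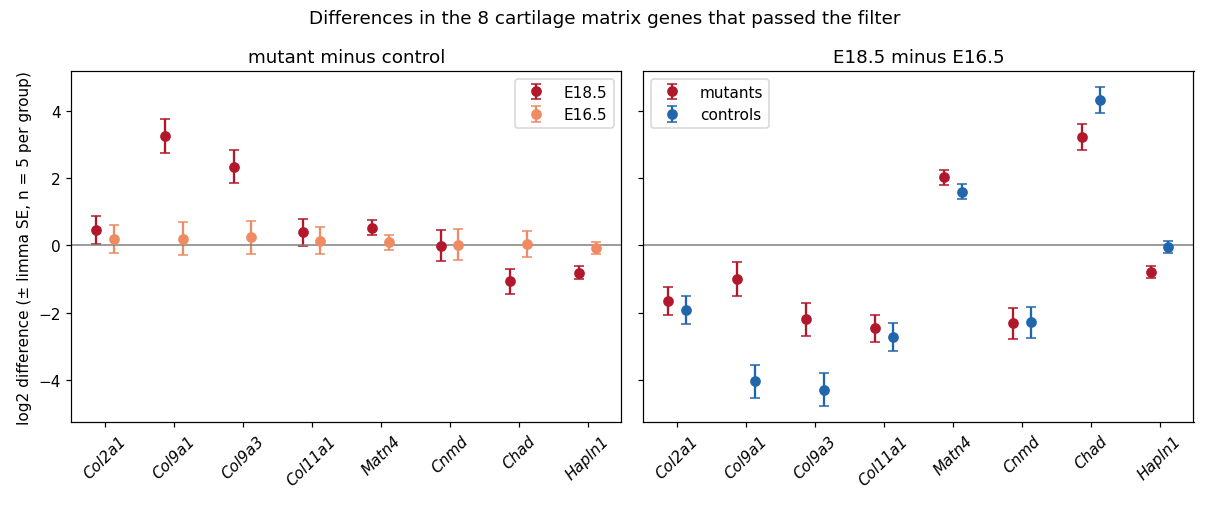
Log2 differences with limma SE for the 8 members that passed the filter (horizontal axis), for mutant minus control at E18.5 and E16.5 (left) and E18.5 minus E16.5 in mutants and controls (right), n = 5 per group. At E16.5 all 8 lay between -0.07 and 0.24. The widest gap between genotypes in the change with stage was in Col9a1 on its brightest probe set, at -0.99 in mutants and -4.04 in controls.

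The change between stages sorted the members into those that were lower and those that were higher near birth. These contrasts use the E18.5 arrays as well, and so are also descriptions. In mutants, 5 members were called lower at E18.5 than at E16.5 (Col11a1, Cnmd, Col9a3, Col2a1 and Hapln1), 2 higher (Chad and Matn4) and 1 was not called (Col9a1), while 27.6% of all genes were called lower and 28.7% higher, 56.2% in all. In controls, 5 were called lower (Col9a3, Col9a1, Col11a1, Cnmd and Col2a1), 2 higher (Chad and Matn4) and 1 was not called (Hapln1), while 35.5% of all genes were called lower and 35.3% higher, 70.9% in all. The stages did not overlap for the 7 members called in each genotype. Chad passed the filter through its E18.5 values alone, and Col2a1 and Cnmd through their E16.5 values alone. For these genes a stage difference was in part built in by the filter. Without overlap were 20.3% of all genes lower and 22.1% higher in mutants, and 25.3% lower and 25.9% higher in controls. With shares of this size the counts say little about the members.

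In E18.5 mutants Col9a1 stood at 50.5% of its E16.5 mutant level (log2 difference -0.99, SE 0.50), and in E18.5 controls at 6.08% of its E16.5 control level (-4.04, SE 0.50, and -4.57 without controls 3 and 4). The second Col9a1 probe set did not show this gap between genotypes, with stage differences of -1.17 in mutants and -1.29 in controls (SE 0.26 each). For Col9a3 these levels were 21.8% in mutants (-2.20, SE 0.49) and 5.12% in controls (-4.29, SE 0.49, and -4.83 without controls 3 and 4). Its second probe set gave -2.32 in mutants and -3.67 in controls (SE 0.47 each). The difference between the mutant effects at E18.5 and at E16.5 was 3.05 for Col9a1 (SE 0.71), which passed, and 2.09 for Col9a3 (SE 0.69), which did not. On the second Col9a1 probe set it was 0.11 (SE 0.37) and did not pass, and the Col9a1 call was lost with the mean of all probe sets (1.58) and with sex as a covariate (2.96). Chad (-1.12, SE 0.54) and Hapln1 (-0.74, SE 0.26) did not pass for this difference either. Without control 3, Col9a1 (3.62), Col9a3 (2.46), Chad (-1.45) and Hapln1 (-0.84) were all called, and so they were without controls 3 and 4. In this contrast 3.62% of all genes were called higher and 4.78% lower, 8.4% in all. Col11a1 was at 18.1% in mutants (-2.47, SE 0.40) and 15.2% in controls (-2.72, SE 0.40, and -3.40 without controls 3 and 4). Cnmd was at 20.1% in mutants and 20.5% in controls, a lower limit to the change since all E18.5 values were dim.

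Chad changed the other way. Its log2 difference, E18.5 minus E16.5, was 3.21 in mutants (SE 0.38) and 4.33 in controls (SE 0.38, and 4.84 without controls 3 and 4). All its E16.5 values were dim, so these are lower limits to the change. Matn4 was 4.08-fold higher at E18.5 in mutants (2.03, SE 0.22) and 3.01-fold higher in controls (1.59, SE 0.22). Hapln1 was lower in all 5 E18.5 mutants than in all 5 E16.5 mutants (-0.79, SE 0.18), and stood at -0.05 (SE 0.18) in controls, where the stages overlapped. Among these 5 members, the mutant level at E18.5 was thus further from the E16.5 level than the control level in Matn4 and Hapln1, and nearer to it in Col9a1, Col9a3 and Chad.

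**Figure D3:**
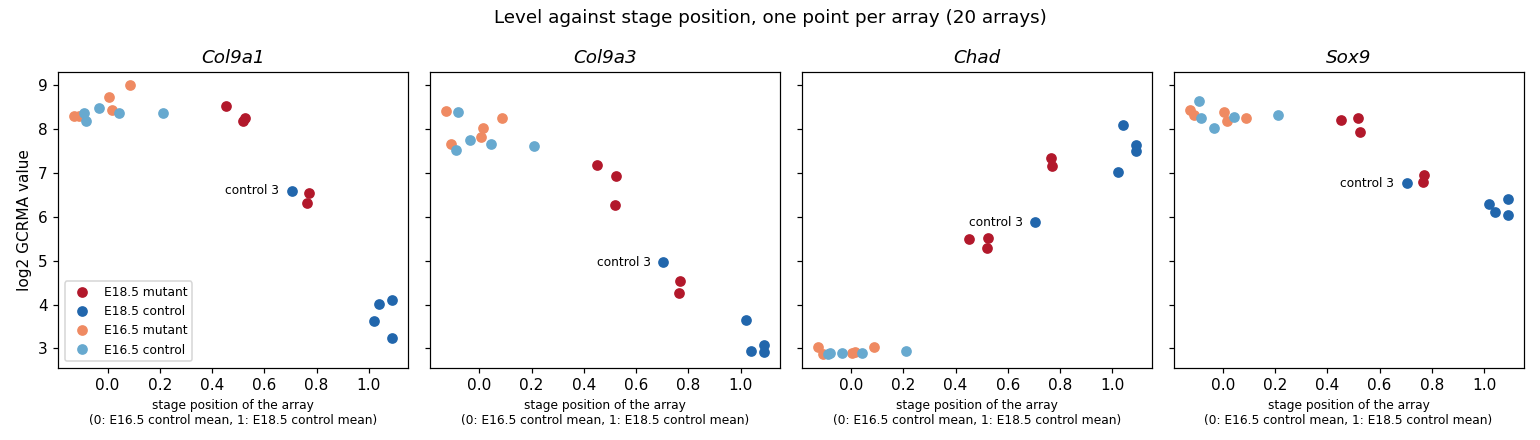
Log2 GCRMA value (vertical axis) of Col9a1, Col9a3, Chad and Sox9 against the stage position of the array (horizontal axis, 0 for the E16.5 control mean and 1 for the E18.5 control mean), 1 point per array in each of the 4 groups. E18.5 control 3, at 0.704, lay beside E18.5 mutants 3 and 5, at 0.765 and 0.769, in stage position and in the level of Col9a1, Col9a3 and Sox9. In Chad it did not, since control 3 was the lowest control, at 5.88, and lay below both of these mutants.

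Sox9, the main activator of cartilage matrix genes and a marker of the distal lung tips, had a similar order of E18.5 arrays. It read 8.26, 7.94, 6.79, 8.20 and 6.96 in the E18.5 mutants and 6.41, 6.12, 6.77, 6.30 and 6.05 in the E18.5 controls. All mutants were above all controls, with mutants 3 and 5 just above control 3. At E16.5 it lay between 8.19 and 8.44 in mutants and between 8.03 and 8.64 in controls. The Sox9 difference was 1.30 at E18.5 (SE 0.24), 1.41 without control 3, and 0.02 at E16.5 (SE 0.24). Its partners Sox5 (-0.24, SE 0.12) and Sox6 (0.33, SE 0.18) were not called at E18.5. On the brightest Sox5 probe set all 5 mutants were below all 5 controls. On a second Sox5 probe set the means were 5.06 in E18.5 mutants and 5.09 in E18.5 controls.

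Markers of other tissues were read in the same arrays, where 18.6% of all genes were called higher and 15.9% lower at E18.5. The mean level of 10 distal tip markers was 8.41, 8.30, 7.96, 8.50 and 8.0 in E18.5 mutants 1 to 5 and 7.71, 7.64, 8.0, 7.78 and 7.78 in E18.5 controls 1 to 5, so mutants 1, 2 and 4 were again above all controls. Of the 8 tip markers tested, 5 were called higher at E18.5 (Mycn, Sox9, Clu, Etv5 and Bmp4), none lower, and 0 of 8 were called at E16.5. Of 8 airway club cell markers, 1 was called higher in E18.5 mutants (Cckar) and 4 lower (Scgb3a1, Gsta3, Cyp2f2 and Aldh1a1), and their mean level was 9.62 to 10.7 in mutants and 10.3 to 11.3 in controls. Of 7 bone markers on the array, 5 were dim in all arrays and the other 2, Phex and Ibsp, were called higher in E18.5 mutants, by 1.61 and 1.59. All 9 thymocyte markers on the array were dim in all 20 arrays. The part of tip epithelium, club cells or stage position in the type IX collagen and Chad differences was not tested beyond these values. With stage position as a covariate, an alternative chosen after the data were seen, the E18.5 difference was 1.49 for Col9a1, 0.48 for Col9a3, -1.26 for Col11a1, -0.51 for Col2a1, 0.37 for Chad and -0.48 for Hapln1, and 0.49 for Sox9. Under it Col9a1, Col9a3, Chad and Hapln1 were not called, and Matn4, at 1.07, was called higher and Col11a1 lower. Stage position was computed from these same arrays and genes, the members included. At E18.5 it largely coincides with genotype, so stage position and genotype cannot be told apart by this alternative.

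Among genes outside the 9, likeness to the collagens was measured as Pearson's r between a gene's deviations from its 4 group means and those of the mean of Col2a1, Col9a1, Col9a3 and Col11a1 over 20 arrays. The closest 6 were Cldn6, an embryonic epithelial claudin (r = 0.947, rho = 0.913), Phgdh, of serine synthesis (0.943), Fmod, the collagen-binding fibromodulin (0.930), the mitotic kinase Ttk (0.927), Spdl1, a spindle protein (0.923), and Clu, clusterin (0.923). Without the 2 farthest arrays, E18.5 control 3 and E18.5 mutant 4, r for these genes was 0.834 to 0.896. Sox9 had r = 0.806 and was 246th among all 8068 genes tested. Of the collagens in the mean, Col2a1 had r = 0.421, and Col9a1, Col9a3 and Col11a1 had 0.849, 0.874 and 0.906. The mean thus follows Col2a1 least. These arrays also share stage position, so this describes which genes varied together and no more.

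The rest of the cartilage programme was read from lists of 100 genes named by function, of which 79 were on the array and 49 passed the filter. At E18.5, 14 of the 49 were called higher and 7 lower in mutants, with a median of 0.05, beside 18.6% and 15.9% and a median of 0.03 over all genes. At E16.5, 0 were called higher and 2 lower, with a median of -0.02, beside 0.0496% and 0.198% and a median of 0.01 over all genes.

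Of the 6 other cartilage matrix genes tested, 3 were called higher and 3 lower at E18.5. Mia, a small secreted protein of chondrocytes, was at 9.82 ± 0.66 in mutants and 7.82 ± 0.76 in controls (SD, n = 5), a difference of 1.99 (SE 0.30), and 2.32 without control 3. Fmod was higher by 1.67 (SE 0.25), 1.91 without control 3, and Prelp, a related leucine-rich repeat protein, by 0.86. Lower were the matrilin Matn2 (-1.40, SE 0.16), the secreted protein Fibin (-1.27, SE 0.11) and Mgp, the inhibitor of calcification (-0.87, SE 0.08), each with all 5 mutants below all 5 controls. Mgp was also lower at E16.5 (-0.47, SE 0.08, limma adjusted p = 0.0070), a call that was lost with sex as a covariate (-0.37) and with only the E16.5 arrays in the fit.

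At E18.5, 18.6% of all genes were called higher and 15.9% lower. Of 23 regulators of chondrocytes on the array, 11 did not pass the filter, and 10 of those were dim in all arrays. Of the 12 tested, 6 were called higher at E18.5 and none lower. The higher genes were Sox9, the Hedgehog effector Gli1 (1.26, SE 0.30) and the parathyroid hormone receptor Pth1r (0.79, SE 0.15). The others were the repressor Trps1 (0.71, SE 0.11), Mef2c and Zfp521. None of the 12 regulators was called at E16.5, where the largest values were -0.33 for the growth factor Fgf18 and -0.26 for the ubiquitin ligase Wwp2. Of 12 genes of glycosaminoglycan synthesis, Papss1, which makes the sulfate donor, was called higher (0.30), and its relative Papss2 (-0.37) and the chondroitin sulfate starter enzyme Csgalnact1 (-0.98, SE 0.16) lower. None of these was called at E16.5, where the largest values were 0.50 for the hyaluronan synthase Has2 and -0.13 for Papss2. Of 19 genes of collagen processing, 4 were called higher, among them the prolyl hydroxylase family member P3h3 (0.50) and the procollagen protease Bmp1 (0.41), and 2 lower. The lower genes were the crosslinking enzyme Lox (-0.87, SE 0.11) and the prolyl hydroxylase subunit P4ha2 (-0.79, SE 0.19). Lox was also lower at E16.5 (-0.58, SE 0.11, limma adjusted p = 0.0203), with all 5 mutants below all 5 controls, and lost its call without any 1 of 6 arrays (E16.5 controls 1, 4 or 5, or E16.5 mutants 2, 4 or 5, at -0.60 to -0.52), with sex as a covariate (-0.59) and with only the E16.5 arrays in the fit. P3h3 lost its E18.5 call without E18.5 controls 1, 4 or 5 or mutants 1 or 2 (0.42 to 0.46), and Bmp1 without E18.5 mutant 4 (0.31).

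**Figure D4:**
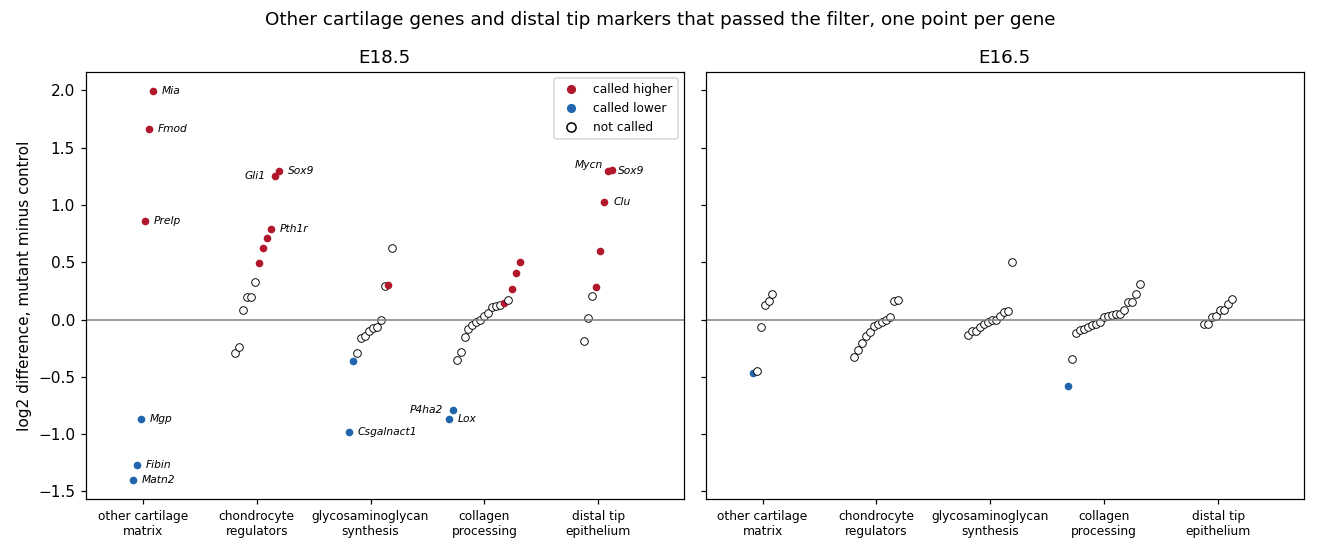
Log2 difference, mutant minus control (vertical axis), at E18.5 (left) and E16.5 (right) for each gene that passed the filter in 4 cartilage lists and in the list of distal tip markers, ordered within a list, with red for called higher, blue for called lower and open for not called. At E18.5 the regulators had 6 higher and none lower, while the other cartilage matrix genes had 3 of each, and at E16.5 only Mgp and Lox were called. Over all genes, 18.6% were called higher and 15.9% lower at E18.5, and 0.248% in all at E16.5.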

How the data were processed

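Total RNA of left lung lobes was hybridized to Affymetrix arrays. The deposited table holds log2 values made by the authors with GCRMA (version not given in the sources used here), per the submitters' processing notes; nothing was transformed again. The number of arrays, 5 per group, limits the precision, and the labels do not say more of how embryos of 1 group are related. For each gene the brightest of its single-gene probe sets was used, and genes above a log2 value of 4 in at least 5 of 20 arrays were tested (8068). A model of the 4 group means over 20 arrays was fitted in limma 3.58.1, R 4.3.3 (lmFit, eBayes, two-sided, Benjamini-Hochberg, called under 0.05) and the code was tested on simulated data. The second probe sets were fitted in the same way over all single-gene probe sets that passed the filter (12517). Members, lists and motifs were chosen with earlier results of these data known. All members are named, and of each other list up to 4 called genes with the largest difference per mutant comparison, or 2 as values where none was called. Further list genes named were chosen after their values were seen. Alternatives covered the arrays fitted, the filter, normalization, probe set, array weights, sex, the replicate number, the threshold, leaving out each array, and, added after the data were seen, stage position as a covariate and leaving out E18.5 controls 3 and 4. Sex was read from Xist and Y-linked genes. Chromosomes and promoters are from RefSeq, GRCm38.p6, and figures from matplotlib 3.10.9.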

Additional observations from a re-analysis of the deposited data

Results flagged for a closer look

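Of 36 groups of 5 arrays examined over the 9 genes, 3 held an array far from the other 4, and chance alone gives this in about 1 of 20 groups. Col9a1 read 6.60 in E18.5 control replicate 3, against 3.23 to 4.11 in the other E18.5 controls; this array also held markers of skeletal muscle and squamous epithelium. Col9a3 read 8.39 in E16.5 control replicate 3, against 7.53 to 7.76 in the others. Col9a2 read 2.93 in E16.5 control replicate 1, against 2.40 to 2.48, all of them dim. The Col9a1 mutant effect differed between E18.5 and E16.5 by 3.05 on the log2 scale, tested as an interaction in a contrast that holds the arrays used to choose the gene. On the second Col9a1 probe set this value was 0.11 (SE 0.37) and did not pass.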

How the results depend on the processing

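Precision is limited by 5 arrays per group and, for Col2a1, Cnmd, Col9a2 and the Col9a3 controls, by values near the low end of the scale. No E16.5 call among the members arose under any alternative. At E18.5, 2 members were called higher and 2 lower. With only the E18.5 arrays in the fit 4 were called higher (Col2a1, Col9a1, Col9a3 and Matn4) and 1 lower (Hapln1). With stage position as a covariate 1 was called higher and 1 lower. With no filter on dim genes, or an adjusted p under 0.01, 1 was called lower. The replicate numbers were not taken to pair the animals: deviations of same-numbered mutants and controls correlated at -0.429 to 0.208 at E18.5 and at -0.0958 to 0.597 at E16.5, where 4 of 5 pairs were above 0.1 and 3 of 5 mutants correlated best with their own number. With the number as a replicate block 1 member was called lower, Chad losing its call and Matn4 gaining one. Leaving out single arrays gave 1 to 2 lower. For the difference of the mutant effects, 1 member was called higher and 0 lower: 0 higher with the mean of all probe sets, sex as a covariate or an adjusted p under 0.01, and 2 higher and 2 lower with array weights or without E18.5 controls 3 and 4. Leaving out single arrays gave 1 to 2 higher and 0 to 2 lower. In the other cartilage lists at E18.5, 9 were called higher at an adjusted p under 0.01, 2 higher and 4 lower with stage position, and 11 lower with array weights. At E16.5, 0 were called lower with sex or with only the E16.5 arrays, 1 at an adjusted p under 0.01, and 1 to 2 without single arrays. Averaging probe sets gave E18.5 differences of 1.93 for Col9a1 and 1.30 for Col9a3. Signs turned at E18.5 with stage position for Chad (0.37), Col2a1 (-0.51) and Col11a1 (-1.26, then called lower), and among E16.5 differences that were not called for Col2a1 (-0.0813), Col11a1 (-0.15) and Cnmd (-0.31) with array weights and for Col9a3 (-0.10), Matn4 (-0.18) and Sox9 (-0.15) with sex. Without single arrays E16.5 differences spanned -0.14 to 0.52 for Col2a1, -0.0075 to 0.24 for Col11a1, -0.0625 to 0.30 for Matn4, -0.44 to 0.38 for Cnmd, -0.21 to 0.0448 for Hapln1 and -0.0522 to 0.10 for Sox9. The causes of these changes were not tested.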

Other observations

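Muscle markers also varied between lobes, some of them between the groups and some within a group. Of 8 heart muscle markers tested, Myl3 and Myl2, both myosin light chains of heart muscle, were called higher in E18.5 mutants, by 1.78 and 1.46 on the log2 scale, and the calcium channel gene Ryr2 was called lower (-1.32), while 34.5% of all genes were called in that comparison. The mean level of 10 skeletal muscle markers was 3.91 in E16.5 mutant 4, against 2.65 to 2.69 in the other E16.5 mutants and 2.68 to 2.91 in the E16.5 controls. In E18.5 control 3 the fast muscle troponin genes Tnni2 and Tnnt3 read 7.75 and 5.88, and in the other E18.5 controls at most 4.59 and 2.78.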
